A study of Bos taurus with 2 samples.

Results

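The HOX cluster genes of cattle were followed through 2 single-cell RNA sequencing libraries of cultured bovine satellite cells. The genes were chosen by name alone, as every gene of the deposited feature list called HOXA, HOXB, HOXC or HOXD followed by a number, and they came to 39 of 21867 genes. HOXA gave 11 of them, HOXB 10, HOXC 9 and HOXD 9. At least 1 molecule was counted for 35 of the 39.

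HOX genes encode homeodomain transcription factors and lie in 4 clusters, in which genes at matching positions are called paralogues and share a number. Low numbers are active towards the head and high numbers towards the tail, and mesoderm cells keep the set of HOX genes of the body level at which they arose. Myogenic cells and fibroblasts of adult muscle are known to keep such a set in culture. In the RefSeq annotation of assembly ARS-UCD2.0, used here for names and neighbours only, all 39 symbols were found, with HOXA on chromosome 4, HOXB on 19, HOXC on 5 and HOXD on 2.

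The cells came from the longissimus, the long muscle of the back, of 1 male Holstein calf aged 2 weeks, and had been kept in DMEM with 10% fetal bovine serum for 1 week. Satellite cells are the muscle stem cells, isolated here by pronase digestion and differential centrifugation, with no sort for a surface marker described. Both libraries, replicates 1 and 2, were prepared from the same cells on the 10x Genomics platform, which counts the 3′ ends of captured RNA molecules as unique molecular identifiers (UMIs), so the spread between them is that of library preparation and not of animals. The study placed the cells in 15 clusters and assigned clusters 1, 2, 3, 4, 5, 8 and 12 to myogenic cells, clusters 7 and 9 to fibro-adipogenic progenitors, and left 6 clusters without an identity.

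Replicate 1 held 9939 cells and 145631299 UMIs, and replicate 2 held 9157 cells and 137818568 UMIs, with 27 barcodes found in both. Clusters 7, 13, 14 and 15 were shallow, with median UMIs per cell between 647 and 2513.5, against 5398.5 to 23011 in the other 11 clusters. Of 7 fibro-adipogenic markers, PDGFRA was at 1.58 ± 0.0744 UMIs per 10000 UMIs in cluster 9 and 0.159 ± 0.000994 in the 7 myogenic clusters (mean ± SD of 2 libraries, as for every level below). PPARG, ZNF423 and DCN were also higher there, while COL1A1 (24.6 ± 0.92 and 35.8 ± 0.184) and COL3A1 (17.7 ± 0.287 and 37.2 ± 0.261) were lower. The 6 myogenic markers summed to 1.86 ± 0.357 in cluster 9 and 13.7 ± 0.317 in the myogenic clusters. The 4 endothelial markers summed to 0.0246 ± 1.92e-05 in cluster 9 and 0.00632 ± 1.64e-05 in the myogenic clusters, with PECAM1 at 0.0121 ± 0.000839 and 0.000558 ± 9.19e-05, and their part in the HOX differences below was not tested. The glial markers SOX10 and FOXD3 had 0 UMIs in both cluster 9 and the myogenic clusters.

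Over all cells the HOX genes together gave 64183 UMIs, a level of 2.26 ± 0.0243 UMIs per 10000. HOXC genes held 64.2% of these UMIs, HOXA genes 25.0%, HOXD genes 5.75% and HOXB genes 5.03%. Central paralogues, numbered 4 to 8, held 73.5%, posterior paralogues, 9 to 13, held 24.2%, and anterior paralogues, 1 to 3, held 2.28%. Levels of different genes can be set side by side because 3′ UMI counting does not scale with gene length, but they depend on how well each 3′ end is annotated, and RefSeq places 9 pairs of neighbouring HOX genes on overlapping spans, namely HOXA3 with HOXA4 and HOXA5, HOXA5 with HOXA6, HOXB3 with HOXB4, HOXB5 and HOXB6, HOXB8 with HOXB9, HOXD3 with HOXD4, and HOXD10 with HOXD11. How reads were divided within these pairs is uncertain.

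HOXC6, which marks thoracic levels of the body axis, was the HOX gene with the most UMIs. Its level was 0.793 in replicate 1 and 0.772 in replicate 2, and it alone held 34.6% of all HOX UMIs. HOXC8, also a gene of thoracic levels, was at 0.354 and 0.359. The libraries lay close together for both genes, and HOXC6 lay above every other HOX gene in each library. HOXC9 was at 0.151 and 0.180, HOXC10, a gene of lumbar levels, at 0.0597 and 0.0613, and HOXC4 at 0.0552 and 0.0580. HOXC10 lay only slightly above HOXC4 in both libraries.

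HOXA9, which is known for a role in satellite cells of aged mice, was the third gene in order, at 0.247 in replicate 1 and 0.262 in replicate 2. Among the other HOXA genes, HOXA6 was at 0.0976 and 0.0939, HOXA5 at 0.0680 and 0.0685, HOXA7 at 0.0651 and 0.0697, and HOXA10 at 0.0310 and 0.0313. HOXA5 and HOXA7 overlapped between libraries, so their order was not resolved. Along the HOXA cluster the level did not move in 1 direction, since HOXA4 (0.0152 ± 0.000955) lay below HOXA3 (0.0231 ± 0.000598) and HOXA7 below HOXA6. The posterior end of the cluster was low, with 166 UMIs of HOXA11 in all cells and 4 of HOXA13. HOXA11 and HOXA13 are limb patterning genes that can repress MYOD1 in limb muscle precursors.

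In the HOXD cluster, HOXD4 stood alone at 0.0957 and 0.0861, ahead of HOXD9 at 0.0248 ± 0.00206. HOXB7, the leading HOXB gene, was at 0.0645 and 0.0636, and HOXB4 followed at 0.0234 ± 0.00196. HOXD4 and HOXB4 belong to the paralogue group that patterns the hindbrain and neck. Each of HOXD4, HOXC6, HOXA9 and HOXB7 thus led its cluster, and the next gene of the cluster was lower in both libraries.

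The 12 genes with the most UMIs, those named with both libraries above, held 92.4% of HOX UMIs. Another 11 genes had 132 to 868 UMIs, 9 had 17 to 79, and 3 had 1 to 4. HOXB1, HOXB13, HOXC11 and HOXD12 had 0 UMIs in 19096 cells, which allows a share of cells with a UMI of up to 0.0157% and a level of up to 0.000106 (3 counts). Paralogues 11, 12 and 13, the genes of the sacral and tail levels and of distal limbs, gave 210, 1 and 50 UMIs, and HOXA11 alone held 166 UMIs. HOXC12 gave 1 UMI and HOXD13 gave 2. Among genes with 100 UMIs or more, the libraries differed by at most 0.41 on the log2 scale.

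**Figure D1:**
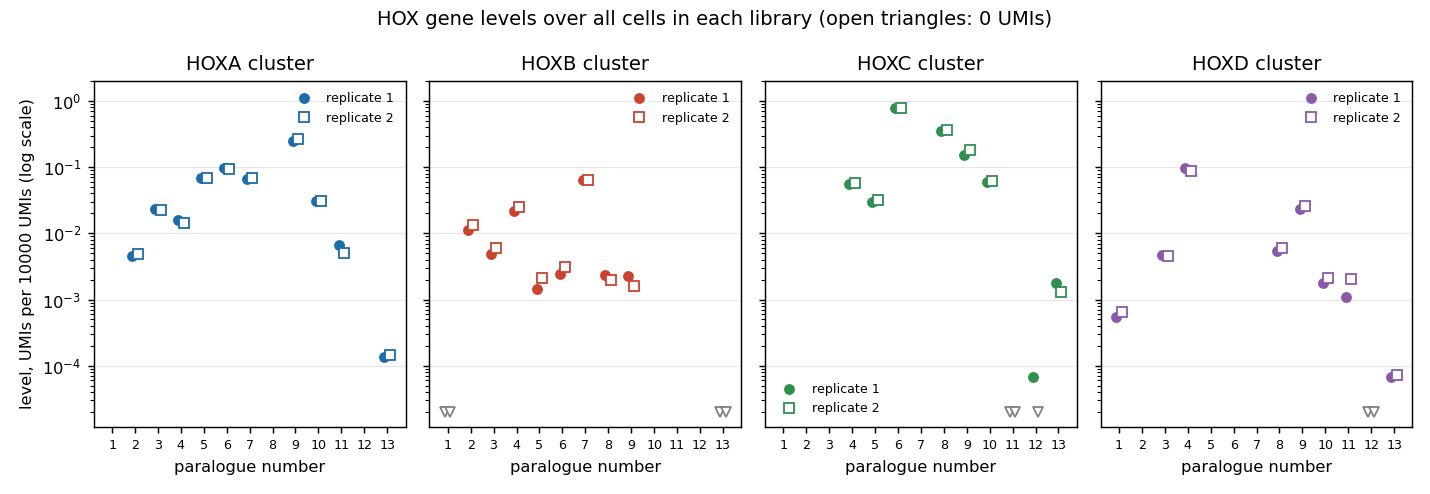
Level of HOX genes over all cells, in UMIs per 10000 UMIs on a log scale, against its paralogue number in the 4 HOX clusters, with filled circles for replicate 1, open squares for replicate 2 and open triangles for 0 UMIs. HOXC6, at 0.793 and 0.772, stands highest, and HOXA13, HOXC12 and HOXD13, with 1 to 4 UMIs, are the lowest genes detected.

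At least 1 HOX UMI was found in 16154 of 19096 cells (84.6%). HOXC6 was found in 59.3% of cells (exact binomial 95% interval 58.6 to 60.0%, counting error only), HOXC8 in 36.1% and HOXA9 in 26.7%. Single cells held few copies, with at most 12 UMIs of HOXC6 in a cell. When the 15996 cells with 5000 UMIs or more were each thinned to 5000 UMIs, 35.6% held no HOX gene, 38.1% held 1, 26.4% held 2 or more and 7.58% held 3 or more. At this depth most cells therefore showed 1 HOX gene or none, and which genes a single cell used cannot be read from it. No cell cluster of this culture is known to lack HOX genes, so the share that free RNA would give was not measured.

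Levels differed between cell clusters. Over the 11 deeper clusters the summed HOX level ran from 1.14 ± 0.0246 in cluster 12, the myocytes, and 1.52 ± 0.0196 in cluster 3 to 2.98 ± 0.0412 in cluster 8 and 3.00 ± 0.00387 in cluster 10. Clusters 8 and 10 differed by less than the SD of cluster 8. Cluster 9 was at 2.80 ± 0.021, cluster 4 at 2.70 ± 0.00574 and cluster 1 at 2.26 ± 0.01. Cluster 12 was the lowest of the 11 in both libraries, and at least 17 of the 28 genes with 50 UMIs or more had their lowest level there. HOXB5, HOXB8 and HOXB9 are not among the 17, as another cluster tied with cluster 12 at 0 UMIs. Cluster 9 had the highest level for 14 of these 28 genes, among them all 8 HOXB genes of that depth, and clusters 8 and 10 for 5 each. Of the 14, HOXB5, HOXB6, HOXB8, HOXB9 and HOXD10 reached 50 UMIs only with those of cluster 9. A high level in cluster 9 was thus built into their selection.

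**Figure D2:**
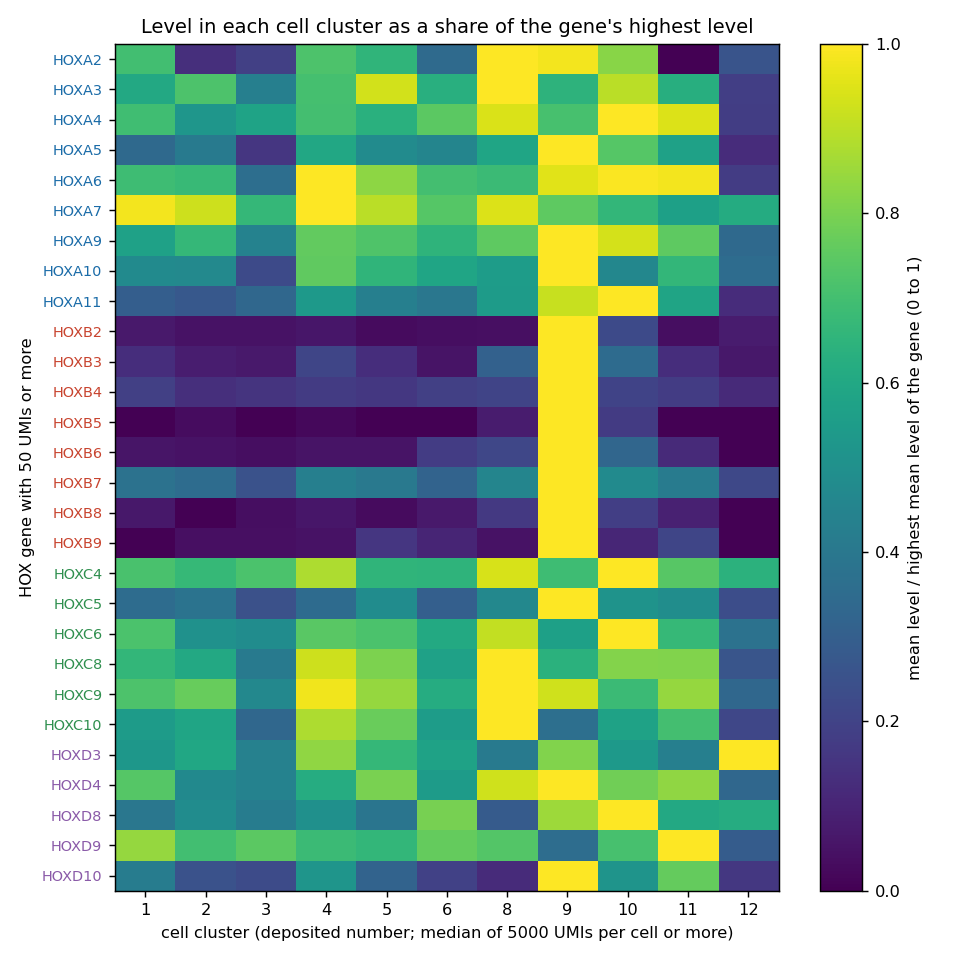
Mean level of the 28 HOX genes with 50 UMIs or more (rows, ordered by HOX cluster and paralogue) in the 11 cell clusters with a median of 5000 UMIs per cell or more (columns), as a share of each gene's highest level from 0 to 1. The 8 HOXB rows are brightest in cluster 9, and at least 17 of the 28 rows are darkest in cluster 12, ties at 0 left out. HOXB5, HOXB6, HOXB8, HOXB9 and HOXD10 reached 50 UMIs only with those of cluster 9.

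Cluster 9 was compared with the 7 myogenic clusters, to ask whether cells of fibro-adipogenic and of myogenic character from the same muscle held the same HOX genes. HOXB genes were higher in cluster 9, while HOXC6, HOXC8 and HOXC9 were not called higher. For each library the UMIs of the cells in either arm were added up, and these sums, 2 against 2, entered the quasi-likelihood test of edgeR. P-values were adjusted by the Benjamini-Hochberg method over all genes tested, and called means that the adjusted p was under 0.05. Of 39 HOX genes 28 passed the filter on low counts, 17 were called higher and 3 lower, against 28.9% of 12941 genes called higher and 27.6% called lower. The median log2 fold change of the 28 was 0.97 and that of all genes tested -0.01. HOXB5, HOXB6, HOXB8, HOXB9 and HOXD10 passed the filter through their counts in cluster 9 alone, so a difference was built into their selection. All of these were among the 17 called higher. The cell clusters had been made from the same counts, so these p-values describe how far clusters lie apart beyond the spread of library preparation and are not independent evidence. When cells were reassigned to clusters without HOX genes, which kept 95.1% of cluster 9, 16 were called higher and 3 lower. The profiles used were those of the same clusters, each cell included, so this step does not remove that dependence.

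HOXB2, a gene of the hindbrain and of anterior body levels, had 107 and 117 UMIs in cluster 9 (levels 0.0754 and 0.0960) and 38 and 51 in the myogenic clusters (0.00375 and 0.00530). Both libraries of cluster 9 lay far above both of the myogenic cells, with a log2 fold change of 4.21 ± 0.242 (SE; adjusted p = 9.68e-05, edgeR). Cluster 9 held 64.2% of all HOXB2 UMIs but 9.31% of the UMIs of all genes.

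HOXB3 was at 0.0225 and 0.0271 in cluster 9 and at 0.00325 and 0.00343 in the myogenic clusters, a log2 fold change of 2.86 ± 0.240 (adjusted p = 0.000349, edgeR). HOXB4, known for its action on blood stem cells, was at 0.0916 and 0.0977 against 0.0130 and 0.0178, a log2 fold change of 2.60 ± 0.186 (adjusted p = 0.000197, edgeR). The libraries of the 2 groups did not overlap for HOXB3 or HOXB4. HOXB6 had 20 and 22 UMIs in cluster 9 and 7 and 12 in the much larger myogenic sums, a log2 fold change of 4.0 ± 0.394 (adjusted p = 0.000612, edgeR). As HOXB6 passed the filter through cluster 9 alone, a higher level there was built into its selection.

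HOXB7, the HOXB gene with the most UMIs, differed least. It was at 0.154 and 0.149 in cluster 9 and at 0.0545 in each library of the myogenic clusters, a log2 fold change of 1.45 ± 0.0786 (adjusted p = 7.98e-05, edgeR). The 3 remaining HOXB genes tested were also called higher, on few molecules. Like HOXB6, they passed the filter through cluster 9 alone, so a difference was built into their selection. HOXB5 had 16 and 22 UMIs in cluster 9 and 2 and 3 in the myogenic clusters, HOXB8 15 and 21 against 11 and 2, and HOXB9 20 and 13 against 8 and 4. Leaving out replicate 1 or 2 moved the log2 ratio of HOXB8 between 3.25 and 6.06, so its size rests on the library. HOXB genes together made up 14.8% ± 1.15 of the HOX UMIs of cluster 9 and 3.70% ± 0.137 of those of the myogenic clusters.

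HOXA genes were called higher for 6 of the 9 tested and lower for 0. HOXA5, a gene of neck and upper thoracic levels, was at 0.127 and 0.157 in cluster 9 and at 0.0551 and 0.0561 in the myogenic clusters, a log2 fold change of 1.32 ± 0.114 (adjusted p = 0.000381, edgeR). HOXA11 was at 0.0162 and 0.00739 against 0.00503 and 0.00447, with a log2 fold change of 1.31 ± 0.40 (adjusted p = 0.0369, edgeR), which was not called when doublets were left out (adjusted p = 0.063) or by DESeq2 (adjusted p = 0.085). HOXA11 had 23 and 9 UMIs in cluster 9, and the log2 ratio was 1.69 in replicate 1 and 0.76 in replicate 2. HOXA9 and HOXA6 were called with log2 fold changes of 0.67 ± 0.0692 and 0.50 ± 0.0867, HOXA10 with 0.98 ± 0.145 and HOXA2 with 0.97 ± 0.269. HOXA3, HOXA4 and HOXA7 had adjusted p of 0.804, 0.56 and 0.0964 (edgeR).

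HOXC genes divided. HOXC5 was at 0.0669 and 0.0763 in cluster 9 and at 0.0244 and 0.0271 in the myogenic clusters, a log2 fold change of 1.45 ± 0.135 (adjusted p = 0.000501, edgeR). HOXC10 went the other way, at 0.0289 and 0.0460 against 0.0644 and 0.0627, a log2 fold change of -0.80 ± 0.198 (adjusted p = 0.0183, edgeR), and its log2 ratio was -1.16 in replicate 1 and -0.47 in replicate 2. HOXC6 was called lower by a small margin, 0.720 and 0.673 against 0.786 and 0.766, a log2 fold change of -0.18 ± 0.0541 (adjusted p = 0.0367, edgeR). HOXC4, HOXC8 and HOXC9 were not called, with log2 fold changes of -0.14 ± 0.158, -0.09 ± 0.0961 and 0.29 ± 0.126. The HOXC genes that hold most HOX UMIs thus differed little between the groups in either direction.

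Of HOXD genes, HOXD4 was called higher with a log2 fold change of 0.69 ± 0.0945 (adjusted p = 0.00205, edgeR), and HOXD10, with 6 and 7 UMIs in cluster 9, was called higher too. A difference was built into the selection of HOXD10, which passed the filter through cluster 9 alone. HOXD9 was at 0.0134 and 0.0123 in cluster 9 and at 0.0234 and 0.0270 in the myogenic clusters, and was called lower with a log2 fold change of -0.99 ± 0.196 (adjusted p = 0.00823, edgeR). HOXD9, HOXC10 and HOXC6 were named as the 3 genes called lower after their values were seen. HOXC13 had 0 UMIs in cluster 9, where 3 counts would be a level of 0.00114, and 24 and 13 UMIs in the myogenic clusters, a level of 0.00186 ± 0.000719.

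**Figure D3:**
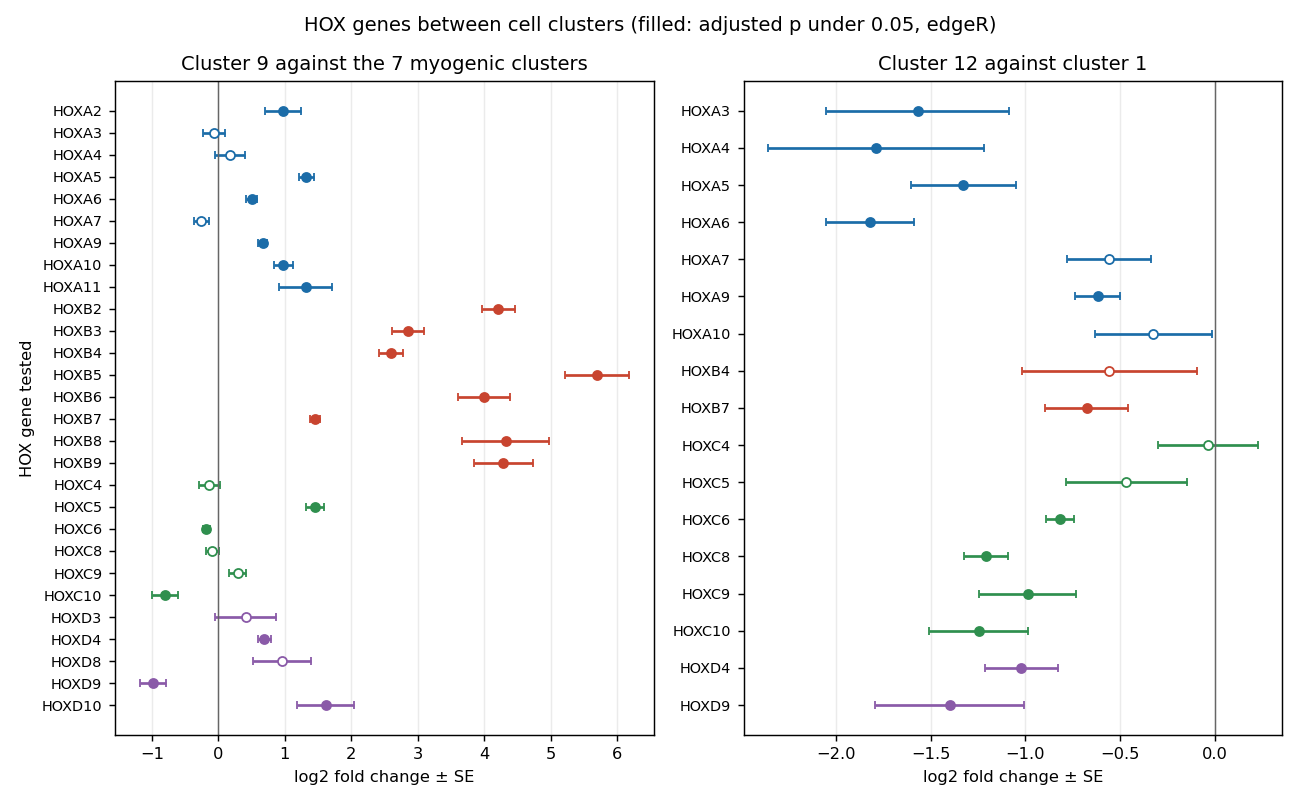
Log2 fold change with its standard error for each HOX gene tested, in cluster 9 against the 7 myogenic clusters (left, 28 genes) and in cluster 12 against cluster 1 (right, 17 genes), with filled points for an adjusted p under 0.05 in edgeR. The 8 HOXB genes lie between 1.45 and 5.70 on the left, and all 17 genes lie below 0 on the right. On the left HOXB5, HOXB6, HOXB8, HOXB9 and HOXD10 passed the filter on low counts through cluster 9 alone. On the right HOXA3, HOXA4, HOXB4 and HOXD9 passed it through cluster 1 alone.

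The same UMIs were also counted per cell at equal depth, which restates the difference in HOXB genes and is not separate evidence. After thinning to 5000 UMIs, a HOXB UMI was found in 189 of 1080 cells of cluster 9 (17.5%, exact binomial 95% interval 15.3 to 19.9%) and in 436 of 11850 myogenic cells (3.68%, 3.35 to 4.03%). Both intervals are of counting error only, as cells are not replicates. The share was 17.1% and 18.0% in the 2 libraries of cluster 9 and 3.49% and 3.88% in those of the myogenic cells, so the libraries did not overlap. Before thinning the shares were 55.7% and 11.2%, with median UMIs per cell of 23011 and 15383. Without HOXB7 the thinned shares were 11.8% and 1.33%. HOXC6 was found in 26.3% of thinned cells of cluster 9 and 31.8% of myogenic cells.

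Cells of the myogenic clusters that held a HOXB UMI were set beside those that did not, for PDGFRA, the fibro-adipogenic marker. PDGFRA was found in 17 of 85 myogenic cells with HOXB2 (20%, exact binomial 95% interval 12.1 to 30.1%) and in 20.8% of the 11838 without it. The share was 24.7% of cells with HOXB4 (19.9 to 30.1%) and 20.7% of those without. For HOXB7 it was 24.6% of cells with a UMI (22.0 to 27.5%) and 20.5% of those without (19.7 to 21.3%). These intervals cover counting error only, and cells are not replicates. Myogenic cells with HOXB7 were also deeper, at a median of 16951 UMIs against 15273. Their doublet scores were in the top 8.0% for 11.3% of cells, against 7.82% of those without HOXB7. HOXC6, which was called lower in cluster 9, showed a gap as well, at 22.9% (21.9 to 23.8%) against 16.8% (15.7 to 18.0%). The part of depth and doublets in these gaps was not tested. In cluster 9 PDGFRA was found in 94.5% of the cells with HOXB2 and 91.2% of those without. The shares there were 91.7% and 91.8% for HOXB4, 94.2% and 90.7% for HOXB7, and 92.6% and 89.5% for HOXC6. In cluster 10, a cluster without an identity, PDGFRA was found in 10 of 15 cells with HOXB2 (66.7%, 38.4 to 88.2%) and in 23.3% of the 995 without. There the cells with HOXB2 were also deeper, at a median of 7235 UMIs against 5383. For HOXB4 in cluster 10 the share was 4 of 15 cells (26.7%, 7.79 to 55.1%) against 23.9% of those without. It was 38.9% against 23.1% for HOXB7, and 29.2% against 18.4% for HOXC6. Myogenic cells and cluster 9 also held the HOXB genes in different proportions, with 224 HOXB2 UMIs beside 400 of HOXB7 in cluster 9 and 89 beside 1078 in the myogenic clusters.

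HOX proteins bind DNA with TALE homeodomain partners of the PBX, MEIS and PKNOX families, and these were followed in the same comparison. Of 9 TALE genes, all tested, 2 were called higher in cluster 9 and 3 lower, near the 28.9% and 27.6% of all genes in this comparison, and their median log2 fold change was 0.26. MEIS2 was at 0.201 ± 0.0244 in cluster 9 and 0.0363 ± 0.00282 in the myogenic clusters, a log2 fold change of 2.45 ± 0.123 (adjusted p = 6.13e-05, edgeR). PKNOX1, the most abundant of the 9, went from 0.438 ± 0.0015 in the myogenic clusters to 0.205 ± 0.00149 in cluster 9, and fell by 1.12 on the log2 scale. PKNOX2 and PBX2 were called lower with log2 fold changes of -1.74 ± 0.290 and -1.15 ± 0.238, and PBX3, PBX4, MEIS1 and MEIS3 were not called, at 0.26 ± 0.0879, 0.79 ± 0.314, -0.24 ± 0.113 and 0.33 ± 0.215.

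Polycomb and trithorax proteins keep HOX genes off or on. Of 31 such chromatin regulators, all tested, 11 were called higher in cluster 9 and 5 lower, beside the same 28.9% and 27.6% of all genes, and their median log2 fold change was 0.15. The largest changes were in CBX proteins, the readers of the Polycomb mark. CBX7 was at 0.00416 ± 8.62e-05 in cluster 9 and 0.019 ± 0.00585 in the myogenic clusters, a log2 fold change of -2.20 ± 0.394 (adjusted p = 0.00562, edgeR). CBX2 and CBX6 were called higher with log2 fold changes of 1.13 ± 0.0951 and 0.98 ± 0.0973. EZH2, the Polycomb methyltransferase, was not called at -0.10 ± 0.0785. Of 10 upstream regulators 5 were tested and 2 called, both higher and named after their values were seen. These were RARA, a retinoic acid receptor, at 0.51 ± 0.0448, and CYP26B1, which breaks down retinoic acid, at 0.286 ± 0.0325 in cluster 9 against 0.00974 ± 0.00143.

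Cluster 12 was compared with cluster 1 to follow HOX genes from myoblasts, in which MYOG was at 0.877 ± 0.103, to myocytes, in which it was at 18.6 ± 0.779. HOX genes were lower in myocytes. Of 39 genes 17 passed the filter, 12 were called lower and 0 higher, against 26.6% of 11007 genes called lower and 26.2% called higher. The 17 had a median log2 fold change of -0.99 and all genes tested -0.03. By DESeq2 8 were called lower and 0 higher. HOXA3, HOXA4, HOXB4 and HOXD9 passed the filter through cluster 1 alone, so a lower level in cluster 12 was built into their selection. Apart from HOXB4, these were among the 12 called lower. Levels are relative to all UMIs, so a fall in HOX RNA and a rise in other RNA cannot be told apart, and library sizes without TMM scaling, which moved the median of all genes by -0.12 on the log2 scale, gave 13 lower and 0 higher.

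HOXC8 was at 0.122 and 0.158 in cluster 12 and at 0.347 and 0.356 in cluster 1, a log2 fold change of -1.21 ± 0.117 (adjusted p = 8.01e-05, edgeR). HOXC10 was at 0.0195 and 0.0240 against 0.0611 and 0.0512, a log2 fold change of -1.25 ± 0.261 (adjusted p = 0.00476, edgeR). HOXC6 was called with the smallest error, at 0.476 and 0.443 against 0.902 and 0.855, and fell by 0.82 on the log2 scale (SE 0.0747, adjusted p = 5.7e-05, edgeR). No library of cluster 12 reached a library of cluster 1 for these 3 genes.

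HOXA6 showed the largest change, with 17 and 12 UMIs in cluster 12 (0.0276 and 0.0192) and 147 and 157 in cluster 1 (0.0856 and 0.0945), a log2 fold change of -1.82 ± 0.233 (adjusted p = 0.00036, edgeR). HOXA5 had 11 UMIs in each library of cluster 12 and 91 and 73 in cluster 1, a log2 fold change of -1.33 ± 0.277 (adjusted p = 0.0047, edgeR). HOXD4 was at 0.0488 and 0.0399 against 0.103 and 0.0927, a log2 fold change of -1.02 ± 0.192 (adjusted p = 0.0028, edgeR). Each of the 3 was lower in both libraries of the myocytes.

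HOXA3, HOXA4 and HOXD9, whose selection had a lower level in cluster 12 built in, were called lower on 8, 5 and 13 UMIs there. Their log2 fold changes were -1.57 ± 0.482, -1.79 ± 0.571 and -1.40 ± 0.393. DESeq2 called none of these 3 (adjusted p 0.18, 0.21 and 0.13), and with no filter on low counts HOXA3 and HOXA4 were not called by edgeR (adjusted p 0.055 and 0.063). The log2 ratio of HOXA3 was -0.85 in replicate 1 and -2.34 in replicate 2, and that of HOXA4 -0.90 and -2.67. HOXA9, HOXB7 and HOXC9 completed the 12, with log2 fold changes of -0.62 ± 0.121, -0.68 ± 0.218 and -0.99 ± 0.255. HOXC4 was not called at -0.04 ± 0.264, nor were HOXA7, HOXA10, HOXB4 and HOXC5.

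Cluster 3, also named for MYOG, was compared with all other cells, a group that contains cluster 9 and so sets a high reference for HOXB genes. Of 30 genes tested 17 were called lower and 0 higher, against 25.4% and 24.5% of 13082 genes. HOXB5 and HOXB6, both called lower, passed the filter on low counts through the other cells alone. A lower level in cluster 3 was thus built into their selection, and cluster 9 held 76.0% of the HOXB5 UMIs. HOXA5 was at 0.0222 and 0.0225 in cluster 3 and at 0.0748 ± 7.38e-05 elsewhere, a log2 fold change of -1.61 ± 0.110 (adjusted p = 0.000132, edgeR). HOXA10, at 0.0143 and 0.0103, was lower by a log2 fold change of -1.31 ± 0.196 (adjusted p = 0.00263, edgeR), and HOXA6 by -0.98 ± 0.126. Cluster 12 against all other cells gave 14 lower and 0 higher of 28 tested, against 29.5% and 24.8% of 13224 genes. HOXB6, with 0 UMIs in cluster 12, passed the filter through the other cells alone, and cluster 9 held 53.2% of its UMIs. Its call (adjusted p = 0.0483, edgeR) was lost with DESeq2, with no filter on low counts and in 1 fit of all 15 clusters.

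Clusters 4, 5 and 8 were named by the study as PAX7 (cluster 4) and PAX3 satellite cells, and each was compared with all other cells. All other cells included clusters 3 and 12, the lowest of the deeper clusters in summed HOX level. Cluster 8 had 8 genes called higher than in all other cells and 1 lower of 30 tested, against 22.5% and 23.5% of 13119 genes. The 8 of 30 called higher lay near the share of all genes, and DESeq2 called 5 higher and 1 lower. HOXC10 was at 0.0917 and 0.113 in cluster 8 and 0.0579 ± 0.000281 elsewhere, a log2 fold change of 0.87 ± 0.120 (adjusted p = 0.00269, edgeR). HOXC8 followed with 0.67 ± 0.0469 and HOXC6 with 0.60 ± 0.0454. Cluster 4 likewise had 8 called higher and 1 lower of 30, against 16.3% and 15.3% of 13115 genes. DESeq2 called 5 higher and 0 lower in cluster 4. The genes called higher were led by HOXC10 at 0.67 ± 0.0808, HOXC8 at 0.54 ± 0.0417 and HOXA6 at 0.52 ± 0.0733. Cluster 5 had 3 called higher and 1 lower of 30, where 1584 of 13153 genes were called in each direction. The 3 were HOXC10 at 0.47 ± 0.110, HOXC8 at 0.33 ± 0.0464 and HOXC6 at 0.23 ± 0.0461, named after their values were seen. HOXB2 was the gene called lower in clusters 4, 5 and 8. It was at 0.00345 ± 0.00314 in cluster 8 and 0.00521 ± 0.00254 in cluster 4, both close to the 0.00452 ± 0.0011 of the myogenic clusters as a whole. In cluster 5 it was at 0.00241 ± 7.49e-05, its lowest level among the deeper clusters. In cluster 8 HOXB2 passed the filter on low counts through the other cells alone, so a lower level was built into its selection there. When all 15 clusters were weighted equally in 1 fit, HOXB2 was called in none of clusters 4, 5 and 8 (adjusted p 0.995 in cluster 4 and 1 in cluster 8, edgeR).

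**Figure D4:**
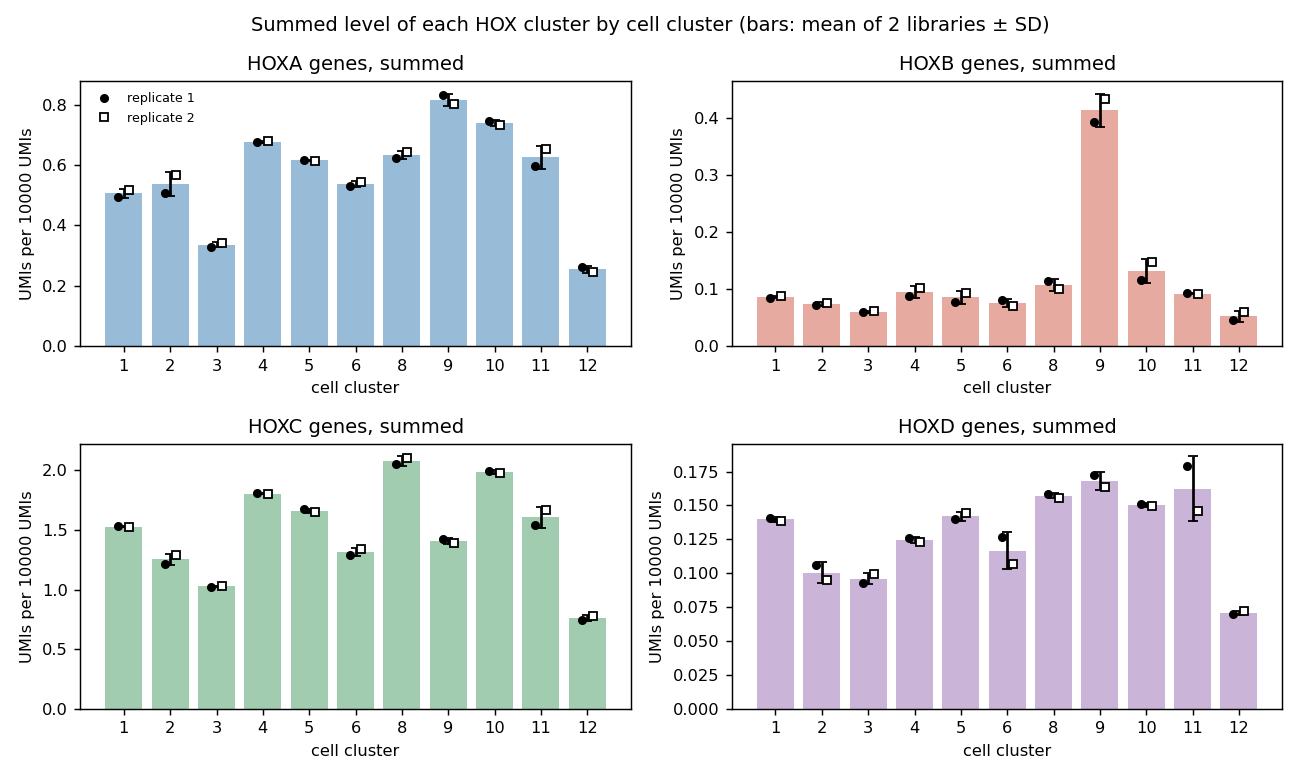
Summed level of the HOXA, HOXB, HOXC and HOXD genes in the 11 deeper cell clusters, in UMIs per 10000 UMIs, with bars for the mean of 2 libraries, error bars for the SD, and points for each library. HOXB genes are at 0.414 ± 0.0291 in cluster 9 and between 0.0523 and 0.131 elsewhere, while HOXC genes are highest in cluster 8 and lowest in cluster 12.

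Cluster 2, myoblasts with cell cycle genes, was also compared with cluster 1. Of 17 HOX genes tested 3 were called lower and 0 higher, against 19.3% and 22.7% of 11494 genes. HOXD4 was at 0.0629 ± 0.0114 in cluster 2 and 0.0979 ± 0.00733 in cluster 1, a log2 fold change of -0.69 ± 0.157 (adjusted p = 0.0113, edgeR). HOXC6 was at 0.620 ± 0.0159 against 0.879 ± 0.0333, a log2 fold change of -0.55 ± 0.0523 (adjusted p = 0.000203, edgeR). HOXC8, at -0.18 ± 0.0576, was not called by DESeq2 (adjusted p = 0.31), without a filter (adjusted p = 0.082) or without TMM scaling (adjusted p = 0.11). With the library as a block 1 gene was called higher.

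Cluster 7, the other cluster assigned to fibro-adipogenic progenitors, is shallow, at a median of 1389 UMIs per cell. COL1A1 and COL3A1 took 147 ± 2.39 and 176 ± 1.82 of every 10000 UMIs in it. Against 1.86 ± 0.357 in cluster 9, the 6 myogenic markers summed to 10.5 ± 1.26 in cluster 7, where PDGFRA was at 1.48 ± 0.362. HOXD4 stood out there, with 51 and 75 UMIs, levels of 0.569 and 0.615 against 0.0871 ± 0.0081 in all other cells, and a log2 fold change of 2.13 ± 0.158 (adjusted p = 0.000202, edgeR). In all, 4 genes were called higher and 5 lower of 28 tested, against 18.3% and 26.4% of 13036 genes, while DESeq2 called 6 higher and 2 lower. Of the 4, HOXB5 passed the filter on low counts through cluster 7 alone, so a difference was built into its selection. HOXB5 had 2 and 2 UMIs in cluster 7 and HOXB3 had 2 and 4. Library sizes without TMM scaling moved the median of all genes by 0.65 on the log2 scale in this comparison. Of the 1298 cells of cluster 7, 990 had under 2000 UMIs. Once such cells were left out, HOXD4 was still called. HOXA6, HOXA7, HOXB3, HOXB5, HOXB7, HOXC9 and HOXC10, called before, were not.

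Between the 2 clusters that the study assigned to fibro-adipogenic progenitors, 20 HOX genes were tested. Of these, 8 were called higher in cluster 9 and 1 lower, against 29.9% and 26.6% of 10785 genes. Without TMM scaling, which moved the median of all genes by -0.51, the counts were 5 higher and 4 lower, and DESeq2 called 4 higher and 1 lower. HOXD4 was the gene called lower, at 0.134 and 0.132 in cluster 9, a log2 fold change of -1.65 ± 0.150 (adjusted p = 9.47e-05, edgeR). HOXB2 had 107 and 117 UMIs in cluster 9 and 1 and 2 in cluster 7, a log2 fold change of 3.07 ± 0.515 (adjusted p = 0.0018, edgeR), and HOXB7 218 and 182 against 2 and 7, a log2 fold change of 2.33 ± 0.356 (adjusted p = 0.00114, edgeR). HOXB2 and HOXA10 passed the filter on low counts through cluster 9 alone, and HOXA4 and HOXB5 through cluster 7 alone, so a difference was built into their selection. HOXB4 and HOXA10, at 1.65 ± 0.347 and 2.04 ± 0.516, were not called once cells under 2000 UMIs were left out (adjusted p 0.14 and 0.26). HOXC5 was called higher at 1.83 ± 0.412, but not by DESeq2 (adjusted p = 0.0523), and HOXC9 at 1.03 ± 0.255, but not without TMM scaling (adjusted p = 0.131, edgeR), and HOXC8, at 0.55 ± 0.196, was not called in 4 of the alternatives. HOXA9, at 0.388 and 0.360 in cluster 9 and 0.379 and 0.353 in cluster 7, and HOXC8, at 0.374 and 0.308 against 0.368 and 0.304, overlapped between the clusters before TMM scaling, so their calls rest on that scaling. HOXB3, HOXB5 and HOXB8 were not called, with 2 and 4, 2 and 2, and 2 and 1 UMIs in cluster 7.

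The remaining clusters, and clusters 1, 2 and 9, were set against all other cells in the same way. Cluster 9 had 17 genes called higher and 4 lower of 30 tested, against 25.3% and 27.7% of all genes. HOXB5, HOXB6, HOXB8 and HOXB9, all called higher, passed the filter on low counts through cluster 9 alone here too. HOXC13, with 0 UMIs in cluster 9, passed it through the other cells alone. A difference was thus built into the selection of these genes. Cluster 10 had 3 higher and 0 lower of 30, against 16.7% and 21.9%. Cluster 1 had 1 higher and 4 lower of 30, against 14.6% and 18.8%, and DESeq2 called 1 higher and 0 lower. Cluster 2 had 0 higher and 8 lower of 30, where 1976 of 13143 genes were called higher and 2203 (16.8%) lower, and DESeq2 called 0 higher and 4 lower. Cluster 6 had 0 and 4 of 29, against 10.6% and 9.48%, and cluster 11 had 1 and 3 of 29, against 12.8% and 13.7%. DESeq2 called 0 higher and 1 lower in cluster 6, and 0 higher and 3 lower in cluster 11. All other cells contained cluster 9 in these comparisons too. HOXB genes made up 2 of the 4 called lower in cluster 1 and 4 of the 8 in cluster 2. They made up 3 of the 4 in cluster 6 and 1 of the 3 in cluster 11. Of the genes called lower, HOXB5 and HOXB9 had 0 UMIs in cluster 1, HOXB8 had 0 in cluster 2 and HOXA2 had 0 in cluster 11. These, HOXA2 in cluster 2 and HOXB3 in cluster 6 passed the filter on low counts through the other cells alone. A lower level was thus built into their selection. HOXB2, HOXB4, HOXB7 and HOXB8 were not called in cluster 2 when all 15 clusters were weighted equally in 1 fit. Cluster 13 had 1 gene called higher and 0 lower of 27, against 5.98% and 11.3%. DESeq2 called 5 higher in cluster 13. Clusters 14 and 15 had 0 called in either direction by edgeR and by DESeq2, against 3.73% higher and 4.07% lower of all genes in cluster 14, and 0.0390% and 0.234% in cluster 15. At an unadjusted p under 0.05, edgeR gave 0 higher and 4 lower in cluster 14, and 2 higher and 1 lower in cluster 15. HOXC6 was at 1.22 ± 0.0678 in cluster 10, its highest level among the deeper clusters, and at 0.46 ± 0.0239 in cluster 12, its lowest, and the libraries of these clusters did not overlap.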

How the data were processed

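Both libraries came from the same cultured cells. Per the labels and the paper's methods, the authors aligned reads to ARS-UCD1.2 and counted UMIs with Cell Ranger 3.0.2, then joined both libraries after bringing them to the same mapped depth. The deposited counts are whole UMIs per gene and cell, from 3′ ends, with no doublet removal described. The deposited cluster table holds scaled average UMI counts per cluster (used) and the authors' log2 fold changes and p-values (not used). The library was read from the barcode's suffix. The deposited averages convert to exact UMI sums, which fixed the cluster of all 19096 cells, with 0 of 252240 gene and cluster pairs differing.

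The HOX genes and all lists were chosen with earlier results of these data known. UMIs were summed per library and arm and compared with edgeR 4.0.16 (TMM, filterByExpr, quasi-likelihood test, Benjamini-Hochberg) in R 4.3.3, checked on simulated counts. The p-values measure only the spread between 2 library preparations. Each SE was derived from the test, as the absolute log2 fold change divided by the square root of its F statistic. Sums of the same library pair across arms, and the log2 library ratios of both arms correlated at 0.167 to 0.669 over genes with 20 UMIs or more in each sum. The library was not a block in the reported fits. Genes with full statistics were up to 8 per comparison with the largest called change, the same sign in both libraries and 50 UMIs or more, and values per library were given for the 12 genes with the most UMIs; TALE genes and up to 4 chromatin regulators were also named. A few genes that these rules cover are not reported here.

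Intervals are exact binomial at 95%, and genes at 0 were assigned an upper limit of 3 counts. Scrublet in scanpy 1.11.5 called 0 and 1 cells at its automatic thresholds, which cannot be right, so doublets were kept and the 8.0% of cells with the highest scores were left out in an alternative, a choice made after seeing this. Other alternatives were DESeq2 1.42.0, no filter, no TMM, the library as a block, cells under 2000 UMIs left out, all 15 clusters in 1 fit, cells reassigned without HOX genes and other thinning depths. Sequences were not used here.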

Additional observations from a re-analysis of the deposited data

How the results depend on the processing

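None of the 104 named log2 fold changes of HOX genes reversed its direction under the alternatives run. Over the comparisons of each cluster with all other cells, 62 calls were lower and 46 higher. DESeq2 gave 37 lower and the single fit of all 15 clusters 29. In these comparisons 0.234% to 29.5% of all genes were called lower and 0.0390% to 25.3% higher, as given for each cluster above. The pooled counts are therefore no result about HOX genes. Between clusters 9 and 7, where 8 were higher and 1 lower, DESeq2 gave 4 higher, library sizes without TMM 5 higher and 4 lower, and the single fit 3 lower. Of 16 called chromatin regulators, 11 higher and 5 lower, DESeq2 kept counts of 7 and 3. In cluster 9 the share of cells with a HOXB UMI was 17.5% at 5000 UMIs, 8.33% at 2000, 32.0% at 10000 and 55.7% without thinning, and in the myogenic clusters 3.68%, 1.40%, 7.16% and 11.2%. The summed HOX level of cluster 12 was 1.14, and 1.11 with doublets left out. With the library as a replicate block, 1 HOX gene was called higher in cluster 2 than in cluster 1 where none had been, and no other count of calls for the 4 comparisons between named clusters moved by over 1.5 times. Of 104 named log2 fold changes, the block kept 102 past the threshold, and DESeq2 kept 67 and left 34 short of it.

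Leaving out either library moved the summed HOX level between 2.25 and 2.28 over all cells, 2.14 and 2.19 in the myogenic clusters, 2.79 and 2.82 in cluster 9, and 1.12 and 1.16 in cluster 12. Counts of calls have no value without a library, since no residual degrees of freedom remain. Cluster 15 has no cell with 2000 UMIs and gave no value without shallower cells. HOX genes with under 50 UMIs in a comparison rest on counts too small to rank, and 1 calf was studied.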
